A study of Mus musculus with 15 samples.

Results

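The extracellular proteases and protease inhibitors of the cultured mouse cardiomyocytes were described from 10 listed genes, namely the matrix metalloproteinases Mmp2, Mmp3 and Mmp14, the tissue inhibitors Timp1, Timp2, Timp3 and Timp4, and the secreted proteases Adamts1, Adamts2 and Adamts5. The members were taken by gene symbol, and 9 of them were measured among the 14337 genes of the expression table; Timp4 was not analysed here. All 9 passed the filter on low values, which 12848 genes passed. Libraries were made by poly(A) capture from primary cardiomyocytes taken from whole hearts of wild-type C57/BL6 pups aged 1 to 3 days. Cultures were kept for 5 days and then starved of serum for 24 hours in 0.5% FBS, and treatment began on day 6. The 4 groups were saline (Control, libraries S1 to S3), 1 µM angiotensin II given again on the following day (AngII, S5 to S8), 20 nM cilengitide, a cyclic peptide that binds αv integrins (low-dose cilengitide, ldCil, S9 to S12), and both agents together (AngII + ldCil, S13 to S16), all harvested on day 8. The labels did not say whether the libraries of a group came from separate cultures, so every test measured only the spread between these libraries.

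Matrix metalloproteinases are zinc-dependent enzymes that cut collagens, other matrix proteins and each other's inactive precursors. TIMPs bind the active site of these enzymes and block them, and TIMP2 also takes part with MMP14 on the cell surface in activating pro-MMP2. ADAMTS proteases are secreted relatives with thrombospondin repeats that trim proteoglycans or procollagen, and in the heart the balance of these families is known for its part in remodelling of the interstitial matrix, which is made largely by fibroblasts.

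Values were log2 RPKM, read density scaled to gene length and library size, so that levels of different genes were compared per length. The labelled cell type was borne out by its markers, with Nppa at a mean of 12 log2 RPKM, Actc1 at 11.7 and Myh6 at 11.2, but the cultures also held transcripts of fibroblasts (Sparc at 10.2, Col1a1 at 9.81), smooth muscle (Acta2 at 10.1) and macrophages (Lyz2 at 7.37). These are the leading genes of their lists, and more specific markers were lower, such as Tcf21 at 5.33 and Pdgfra at 3.58 for fibroblasts, Myh11 at 2.07 for smooth muscle and Adgre1 at 2.73 and Ptprc at 0.65 for macrophages. Endothelial (Eng at 5.90, Pecam1 at 1.62, Kdr at 0.69) and epicardial lists (Krt18 at 6.38, Upk3b at 0.70, Wt1 at -0.93) likewise had defining markers far below their leading gene. In such bulk samples fewer cells of a type and less RNA per cell cannot be told apart. The libraries S1, S3, S5, S9 and S10, which came from 3 of the groups, stood apart: the mean of an interferon response list, centred on each gene's mean over all libraries, was 2.10 to 2.69 log2 units in these and -1.94 to 0.45 in the other 10. The fold changes of Mmp3 and Timp1 and the genes called in a contrast are also given without them, which leaves S2 as the single control.

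Timp2 was the member with the highest level, at 8.10 ± 0.31 log2 RPKM (SD over the 15 libraries), and 1.83% of tested genes lay above it. Timp1 followed at 7.71 ± 1.06 and Timp3 at 7.42 ± 0.75, ahead of the membrane-bound Mmp14 at 6.77 ± 0.28 and the gelatinase Mmp2 at 6.40 ± 0.36. The 3 inhibitors thus had higher means than any of the proteases in the list. The 3 ADAMTS genes came next, with Adamts2 at 6.01 ± 0.45, Adamts1 at 5.39 ± 0.49 and Adamts5 at 5.17 ± 1.04, and the stromelysin Mmp3 was last at 3.40 ± 2.67, with 59.2% of genes above it. Among neighbours in this order, only the step from Adamts2 to Adamts1 (0.62 log2 units, higher in 13 of 15 libraries) was larger than the SD of the difference over libraries (0.60). The other neighbours, from Timp2 and Timp1 (difference 0.39, SD 1.24) to Adamts5 and Mmp3 (1.77, SD 2.83), did not differ beyond that spread. The members also differed in how stable they were. Mmp14 spanned 2.02-fold from its lowest to its highest library and Timp2 2.37-fold, near the median of all tested genes (1.07 log2 units), whereas Mmp3 spanned 230-fold, a range that only 5 of the 12848 genes exceeded.

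**Figure D1:**
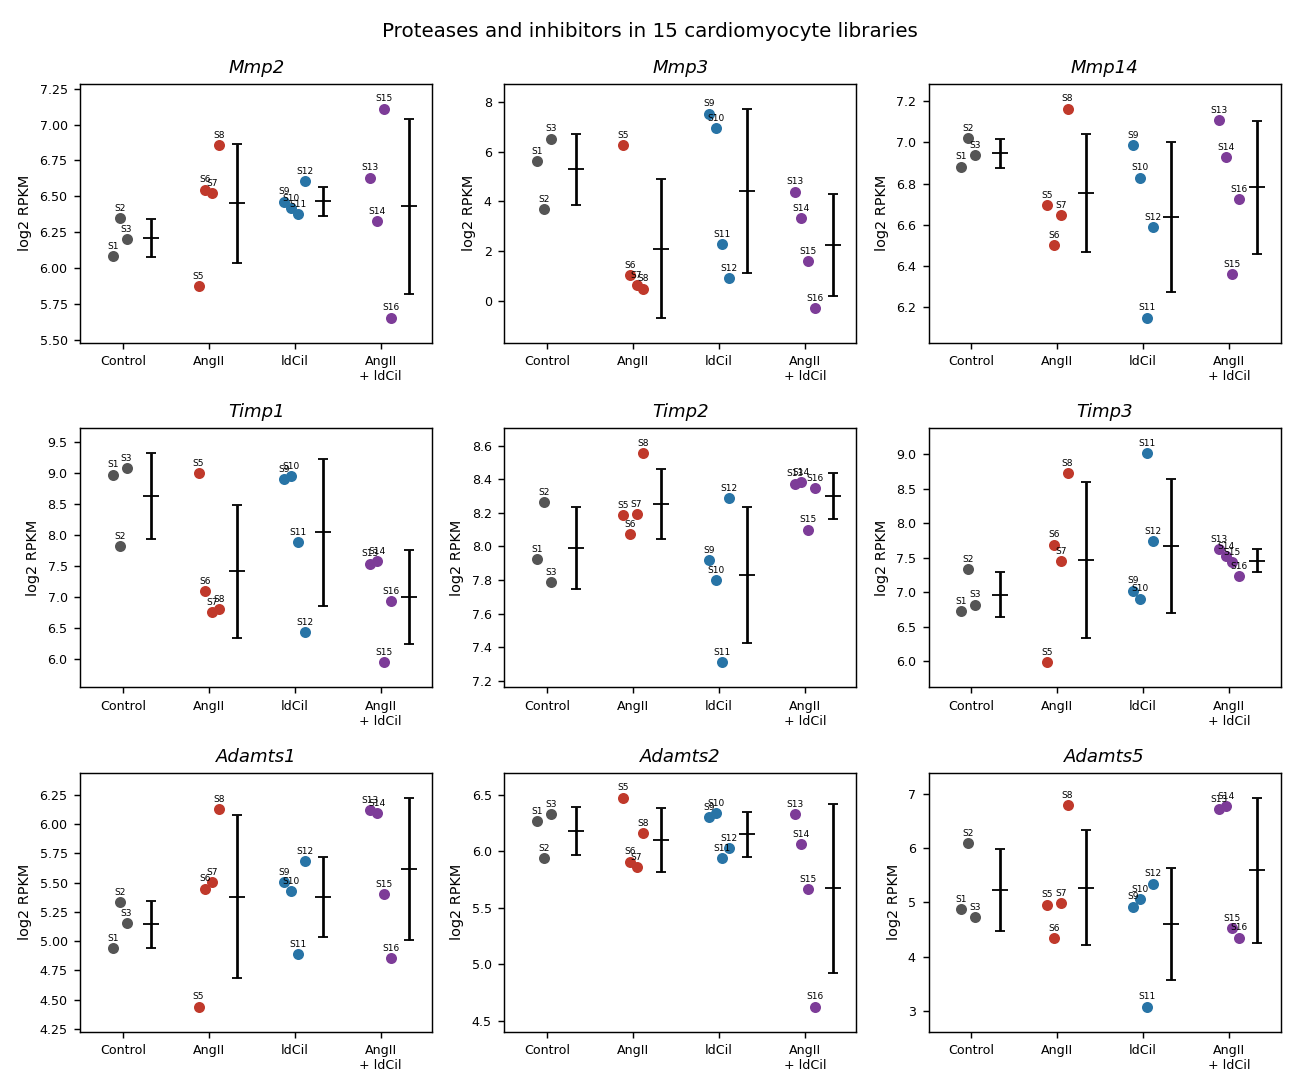
Level of each of the 9 genes in log2 RPKM (vertical axis, scaled separately for each gene) for the 4 treatments (horizontal axis). Each point is a library, and the group mean is drawn beside the points with a bar for the SD. Mmp3 runs from -0.31 to 7.54 and its groups overlap, while Mmp14 stays between 6.15 and 7.16.

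Mmp3, ENSMUSG00000043613.8, encodes stromelysin-1, an enzyme with broad matrix substrates that also activates other pro-MMPs, and lies on chromosome 9 of GRCm38 from 7445822 to 7455975 on the plus strand. Its promoter is printed with that of Timp1, because both genes were highest in the same libraries, and with that of Timp3, which was lowest in them. Each sequence runs from 250 bases before to 50 after the RefSeq start (GRCm38.p6, transcribed strand), with capitals marking an AP-1 motif or a TATAAA box.
Mmp3, chr9:7445572-7445871, plus strand: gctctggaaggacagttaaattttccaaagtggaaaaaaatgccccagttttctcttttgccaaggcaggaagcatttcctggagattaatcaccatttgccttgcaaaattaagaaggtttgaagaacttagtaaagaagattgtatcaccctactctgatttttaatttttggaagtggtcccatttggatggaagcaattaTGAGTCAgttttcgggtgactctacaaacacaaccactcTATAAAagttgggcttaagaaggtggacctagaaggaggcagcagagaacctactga
Timp1, chrX:20869916-20870215, plus strand: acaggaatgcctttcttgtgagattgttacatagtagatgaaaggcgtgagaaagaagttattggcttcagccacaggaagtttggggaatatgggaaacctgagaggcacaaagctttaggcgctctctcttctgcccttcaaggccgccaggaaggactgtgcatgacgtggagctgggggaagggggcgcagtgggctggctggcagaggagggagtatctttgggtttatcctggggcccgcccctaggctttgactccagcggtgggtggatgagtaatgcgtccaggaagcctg
Timp3, chr10:86300162-86300461, plus strand: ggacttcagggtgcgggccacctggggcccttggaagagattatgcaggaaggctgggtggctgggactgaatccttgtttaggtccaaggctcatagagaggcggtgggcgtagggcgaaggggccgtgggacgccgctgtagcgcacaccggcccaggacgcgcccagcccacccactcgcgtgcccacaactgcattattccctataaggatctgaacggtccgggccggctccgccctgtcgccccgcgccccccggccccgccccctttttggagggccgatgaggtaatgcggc
In the Mmp3 window TGAGTCA began at position -46 from the start and TATAAA at -7. The search covered both strands for AP-1 (TGANTCA, present in 7.81% of 32851 RefSeq promoters of this length), TATAAA (13.6%), an interferon-stimulated element (GAAANNGAAA, 3.44%) and a gamma-activated site (TTCNNNGAA, 8.30%). None of these letters was found in the windows of Timp1 and Timp3, whose GC contents were 55.0% and 67.0% against 40.0% for Mmp3. Promoters were matched for 7 of the 9 genes, and in the others Adamts1 alone held a match, TATAAA at -32.

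Mmp3 measured 5.63, 3.70 and 6.54 log2 RPKM in the Control libraries S1 to S3. In the AngII libraries S5 to S8 it was 6.27, 1.03, 0.62 and 0.49, so that S5 lay with the controls and the other 3 below each of them. In ldCil (S9 to S12) it was 7.54, 6.95, 2.28 and 0.91, which are the highest pair of values of the series and a pair below every control. In AngII + ldCil (S13 to S16) it was 4.40, 3.33, 1.59 and -0.31. All 4 groups overlapped, and 26.9% of the gene's variance lay between groups, against a median of 18.3% over all tested genes. The libraries S1, S3, S5, S9 and S10 held the 5 highest values (5.63 to 7.54), and the other 10 ranged from -0.31 to 4.40. Among these 10 the values were graded, with S13, S2 and S14 highest at 4.40, 3.70 and 3.33. The same libraries were highest of the 10 in the interferon response list, at -0.42, 0.45 and -0.53 in that order.

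Timp1, ENSMUSG00000001131.11, encodes a secreted inhibitor of most MMPs that is well known as an inducible gene, and lies on chromosome X from 20870166 to 20874735, plus strand. It sits inside the span of Syn1 on the opposite strand, and since the strand setting of the counting was not given, reads of the shared span cannot be told apart, although Syn1 itself averaged only -0.28 log2 RPKM. Timp1 was 8.98, 7.82 and 9.08 log2 RPKM in Control and 9.0, 7.10, 6.75 and 6.81 in AngII. It was 8.90, 8.96, 7.89 and 6.43 in ldCil and 7.54, 7.58, 5.94 and 6.93 in AngII + ldCil. Its 5 highest libraries were the 5 of Mmp3, at 8.90 to 9.08, and these were also the 5 highest in the interferon response list; the other 10 ranged from 5.94 to 7.89. The inhibitor stayed above the enzyme throughout, as Timp1 exceeded Mmp3 in 15 of 15 libraries, by 1.36 log2 units in S9 at the least and 7.24 in S16 at the most (mean 4.32, SD 1.77).

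Timp3, ENSMUSG00000020044.13, encodes the TIMP that binds tightly to the extracellular matrix and also inhibits ADAM and ADAMTS enzymes, and lies on chromosome 10 from 86300372 to 86349506, plus strand, inside the span of Syn3 on the opposite strand (mean -0.72 log2 RPKM). Its levels were 6.73, 7.33 and 6.82 in Control, 5.99, 7.69, 7.45 and 8.73 in AngII, 7.03, 6.91, 9.01 and 7.74 in ldCil, and 7.63, 7.52, 7.44 and 7.23 in AngII + ldCil. The split was opposite to that of Timp1: the 5 libraries that stood apart held the 5 lowest values, 5.99 to 7.03, and the rest 7.23 to 9.01. Within the rest the order was not opposite, since S11 was the highest of them in Timp1 as well. The highest value belonged to S11, the ldCil library that was lowest in Timp2, Mmp14 and Adamts5.

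Complete separation of these 5 libraries from the other 10 was found for 3 of the 9 members, upward for Mmp3 and Timp1 and downward for Timp3. Over all tested genes 4.51% lay wholly above and 2.47% wholly below in the same libraries; the 5 libraries were picked from the data, so the separation is a description with no test. Adamts2 was high in them too (6.27 to 6.47), but S13 reached 6.33, and Mmp2, Mmp14, Timp2, Adamts1 and Adamts5 overlapped. The fibroblast marker list did not separate the sets, with centred means of -0.32 to 0.31 in the 5 and -1.20 to 0.51 in the rest, nor did the macrophage list (-0.18 to 1.01 against -1.41 to 0.75). The cardiomyocyte list did by a narrow margin, at -0.24 to -0.14 in the 5 and -0.13 to 0.32 in the rest. A list of MMPs other than the members separated them as well, at 0.45 to 0.608 in the 5 and -0.716 to 0.169 in the rest. The part of these lists in the levels of the 3 genes was not tested.

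**Figure D2:**
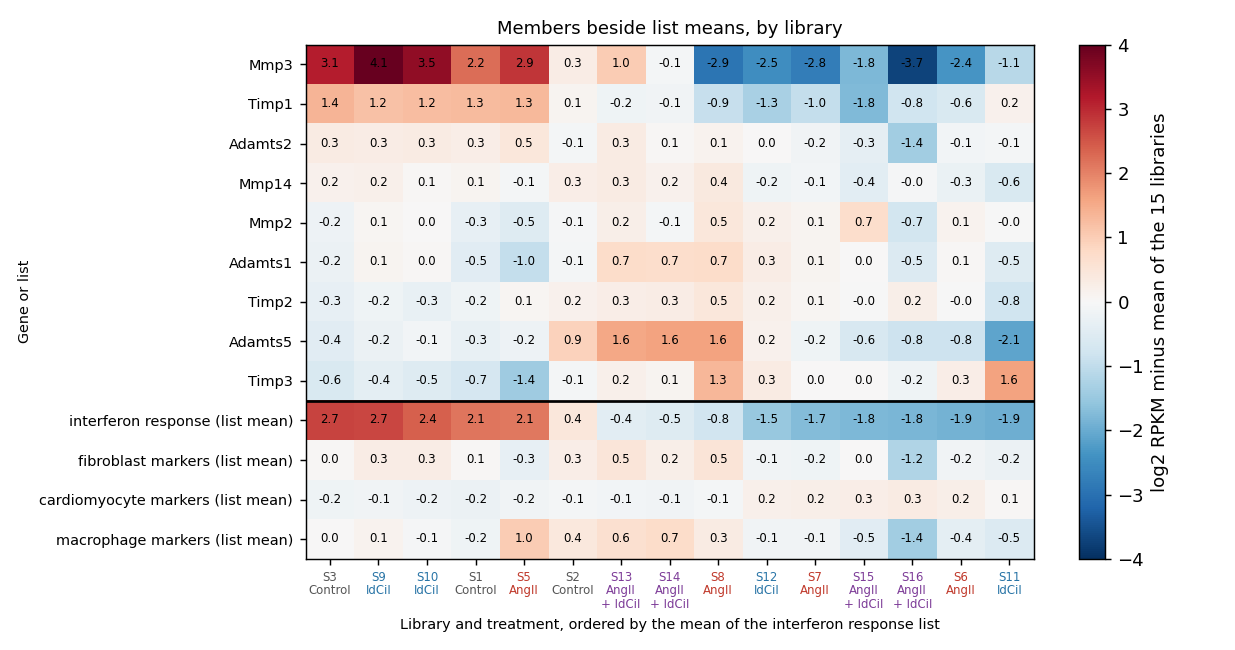
Colour gives the log2 RPKM minus the mean of the 15 libraries for each member and the mean of each marker list (rows), with libraries (columns) ordered by the interferon response list and named by treatment. At the end with the high interferon values (2.10 to 2.69), Mmp3 and Timp1 are high and Timp3 is low in all 5 libraries.

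**Figure D3:**
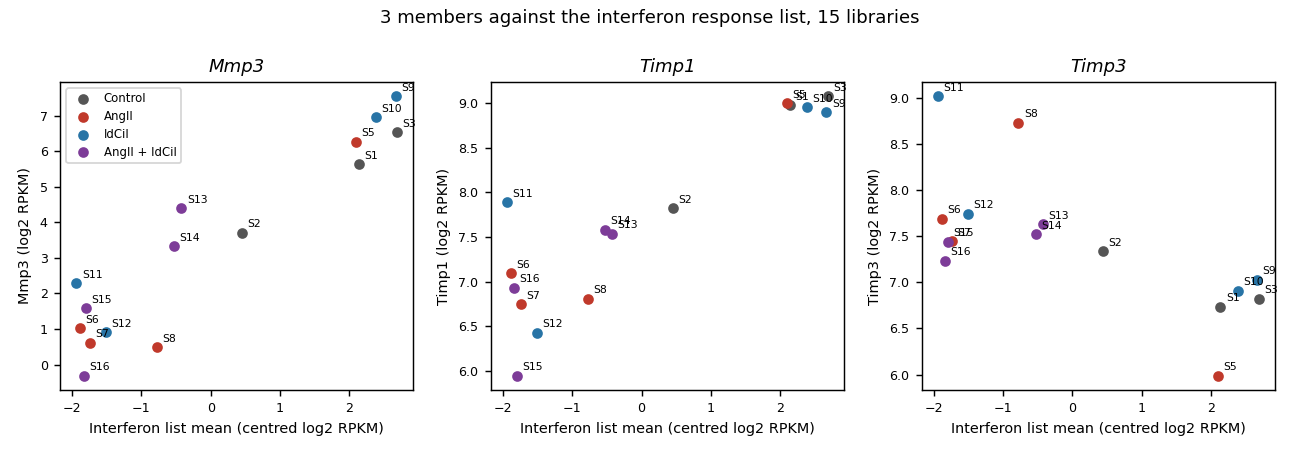
Level of 3 members (vertical axes, log2 RPKM) against the mean of the interferon response list (horizontal axes, centred log2 RPKM), with 1 point per library coloured by treatment. The 5 libraries on the right lie at 5.63 to 7.54 for Mmp3, 8.90 to 9.08 for Timp1 and 5.99 to 7.03 for Timp3.

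Mmp2, ENSMUSG00000031740.8 (chromosome 8, 92827291 to 92853420, plus strand), encodes gelatinase A, which is produced mainly by stromal cells. Its levels were 6.08, 6.35 and 6.20 in Control, 5.88, 6.55, 6.52 and 6.86 in AngII, 6.46, 6.42, 6.38 and 6.61 in ldCil, and 6.63, 6.33, 7.11 and 5.66 in AngII + ldCil. The widest spread was within AngII + ldCil, which held both the highest library, S15, and the lowest, S16. Mmp14, ENSMUSG00000000957.11 (chromosome 14, 54431612 to 54445364, plus strand), encodes the membrane-type enzyme that activates pro-MMP2, and ranged only from 6.15 in S11 to 7.16 in S8, with group means between 6.64 ± 0.37 in ldCil (SD, n = 4) and 6.95 ± 0.07 in Control (SD, n = 3). Mmp14 was above Mmp2 in 11 of 15 libraries, by 0.37 on average (SD 0.48).

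Timp2, ENSMUSG00000017466.9 (chromosome 11, 118301069 to 118355740, minus strand, overlapping Cep295nl on the same strand, mean -0.47 log2 RPKM), was 7.93, 8.26 and 7.79 in Control and 8.19, 8.07, 8.19 and 8.55 in AngII. It was 7.92, 7.80, 7.31 and 8.29 in ldCil and 8.37, 8.39, 8.10 and 8.35 in AngII + ldCil, the last group being the tightest. Among the transcripts of the activation complex Timp2 was on top throughout, since it exceeded Mmp14 in 15 of 15 libraries (mean 1.33, SD 0.29) and Mmp2 in 15 of 15 (mean 1.70, SD 0.45). Of the variance of Timp2, 42.1% lay between groups, the largest share among the 9 members.

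Adamts2, ENSMUSG00000036545.8 (chromosome 11, 50602084 to 50807573, plus strand), encodes a procollagen N-proteinase, which trims fibrillar collagen precursors, and is overlapped by predicted genes whose reads cannot be told apart from its own without the strand setting. It was 6.27, 5.94 and 6.33 in Control, 6.47, 5.91, 5.86 and 6.16 in AngII, 6.30, 6.34, 5.94 and 6.03 in ldCil, and 6.33, 6.07, 5.67 and 4.63 in AngII + ldCil. S16 was by far the lowest, and the same library was lowest in Mmp2, in Mmp3 and in the fibroblast marker mean (-1.20). With that mean as a covariate, the log2 fold change of Adamts2 in AngII + ldCil against Control was -0.334, beside -0.507 in the main fit. That of Mmp3 was -2.549, beside -3.037. The part of the fibroblast mean in the values of S16 itself was not tested. Adamts1, ENSMUSG00000022893.14 (chromosome 16, 85793827 to 85803113, minus strand), and its neighbour Adamts5, ENSMUSG00000022894 (chromosome 16, 85856173 to 85901828, minus strand), encode proteoglycan-cleaving enzymes that act on versican and aggrecan. Adamts1 ranged from 4.44 in S5 to 6.12 in S8, with group means from 5.14 ± 0.20 in Control (SD, n = 3) to 5.62 ± 0.61 in AngII + ldCil (SD, n = 4). Adamts5 was 4.88, 6.10 and 4.72 in Control, 4.96, 4.34, 4.99 and 6.79 in AngII, 4.92, 5.06, 3.08 and 5.35 in ldCil, and 6.73, 6.77, 4.52 and 4.35 in AngII + ldCil. Its 13.1-fold range was exceeded by 270 tested genes (2.10%), and its high libraries S2, S8, S13 and S14 were not those of Mmp3.

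The contrast of AngII with Control asked what the hypertrophic stimulus did to these genes. None of the 9 members passed an unadjusted p of 0.05 in limma, against 6.04% of all tested genes, and none passed after Benjamini-Hochberg adjustment, as was so for 0% of all genes. Mmp3 had a lower mean in AngII (a log2 fold change of -3.19, SE 1.72, 95% interval -6.87 to 0.49, limma adjusted p = 0.782). Timp1 gave a log2 fold change of -1.21 (SE 0.65, interval -2.61 to 0.18, adjusted p = 0.782), and the other 7 members lay between -0.19 and 0.50. The median over the members was 0.04, beside 0.02 over all genes. No member had groups without overlap, a pattern shown by 8.74% of genes. These values moved when single libraries were left out. Without the AngII library S5, Mmp3 at -4.58, Timp1 at -1.74 and Timp3 at 0.99 each passed the unadjusted p, as did 12.8% of all genes. The limma adjusted p = 0.383 for the first pair and adjusted p = 0.387 for Timp3. Timp1 also passed the unadjusted p without the Control library S2 (-1.61, adjusted p = 0.725), as did 6.86% of all genes. It did so too without the ldCil library S12, which enters only through the shared spread (-1.21, adjusted p = 0.736). Without S1, S3, S5, S9 and S10 Mmp3 was at -2.99 and Timp1 at -0.94, and neither passed. With the interferon list mean as a covariate, Mmp3 was at 0.08 and Timp1 at -0.09. That list mean itself differed between treatments, averaging 1.76 in Control, -0.575 in AngII, 0.402 in ldCil and -1.15 in AngII + ldCil. A fit with this covariate, here and in the other contrasts, can therefore take out a treatment difference too, and cannot tell the sources apart.

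For ldCil alone against Control, again none of the 9 members passed the unadjusted p (1.95% of all genes did) or the adjusted p (0%). The log2 fold change was -0.87 for Mmp3 (SE 1.72, interval -4.55 to 2.81), -0.58 for Timp1 (SE 0.65, interval -1.97 to 0.81) and -0.31 for Mmp14 (SE 0.21), and the other 6 members lay between -0.63 and 0.71. Mmp2 was the only member whose groups did not overlap, with every ldCil library above every control, and 6.87% of genes showed such separation. Its difference was small, 0.26 log2 units (SE 0.27, interval -0.33 to 0.84, limma adjusted p = 0.966), while the 2-sided exact permutation p was 0.0286, the smallest that 3 against 4 libraries allow. It passed the unadjusted limma p when only these groups entered the model (adjusted p = 0.826), as did 3.2% of all genes. Without the 5 libraries that stood apart Mmp2 was at 0.14, Mmp3 at -2.10 and Timp1 at -0.66, and none of them passed. The median over the members was -0.16, beside 0.00 over all genes.

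Timp1 was the only member to pass the unadjusted p when AngII + ldCil was compared with Control, so 1 of 9 passed against 5.62% of all genes, and none passed the adjusted p (0%). It was at 7.0 ± 0.76 log2 RPKM in AngII + ldCil (SD, n = 4) and 8.63 ± 0.70 in Control (SD, n = 3), a log2 fold change of -1.63 (SE 0.65, interval -3.02 to -0.24), or 0.323 of the control level. The limma adjusted p was 0.849, and the 2-sided exact permutation p was 0.0286, the smallest possible here. All 4 treated libraries lay below all 3 controls, and 13.5% of genes showed groups without overlap. The call was lost when S1, S3 or S15 was left out, with a log2 fold change of -1.28 in the last case. Without S1, S3, S5, S9 and S10 together it was -0.83 and did not pass, nor did it at -0.23 with the interferon covariate. Mmp3 (-3.04, SE 1.72), Timp2 (0.31, SE 0.20) and Adamts2 (-0.51, SE 0.30) did not pass. Without S13 Adamts2 was at -0.73 and passed the unadjusted p (adjusted p = 0.765), and without S16 it was at -0.16. Mmp3 was at -1.45 without the 5 libraries, and the other members lay between -0.17 and 0.49. The median of the members was 0.22 and that of all genes 0.05.

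Adding ldCil to AngII is the contrast that bears on the drug in stimulated cells. None of the 9 members passed the unadjusted p, which 2.58% of genes did, or the adjusted p (0%), and none had groups without overlap (1.55% of genes). Mmp3 gave a log2 fold change of 0.15 (SE 1.59, interval -3.25 to 3.56) and Timp1 of -0.42 (SE 0.60, interval -1.70 to 0.87). Adamts2 was at -0.43 (SE 0.28), which became -0.08 without S16 and -0.65 without S13, where it passed the unadjusted p (adjusted p = 1). Without the 5 libraries Mmp3 was at 1.54 and Timp1 at 0.12, and neither passed. The other 6 members lay between -0.02 and 0.33, with a median over all members of 0.03 and over all genes of 0.01.

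Timp2 passed the unadjusted p when AngII + ldCil was compared with ldCil, 1 of 9 members against 5.07% of genes, with none at the adjusted p (0%). It averaged 8.30 ± 0.14 and 7.83 ± 0.40 log2 RPKM in the 2 groups (SD, n = 4 each), a log2 fold change of 0.47 (SE 0.18, interval 0.08 to 0.86). The limma adjusted p was 0.974, the exact permutation p was 0.0571, and the groups overlapped because S12 (8.29) exceeded S15 (8.10). Without S11, the ldCil library with the lowest Timp2, the value was 0.30 and the call was lost. The call was also lost without S1, S3, S5, S9 and S10 (0.50). In that fit Timp3 was at -0.92, beside -0.22 over all libraries, and Mmp3 was at 0.65 and Timp1 at -0.16. No member had groups without overlap, against 3.28% of genes. Timp1 was at -1.05 (SE 0.60) and did not pass, but did at -1.59 without S12 (adjusted p = 0.48), and Mmp3 was at -2.17 (SE 1.59). Adamts5 (0.99, SE 0.68) and Adamts2 (-0.48, SE 0.28) did not pass, the latter except without S13 (-0.70), and the other 4 members lay between -0.22 and 0.24; the median was -0.04, beside 0.03 over all genes. In the test of whether the AngII difference itself depended on ldCil, none of the 9 passed the unadjusted p (3.86% of genes) or the adjusted p (0%), and their values lay between -0.72 and 1.02. These contrasts share groups, so that the values of a member in them are not independent of each other.

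**Figure D4:**
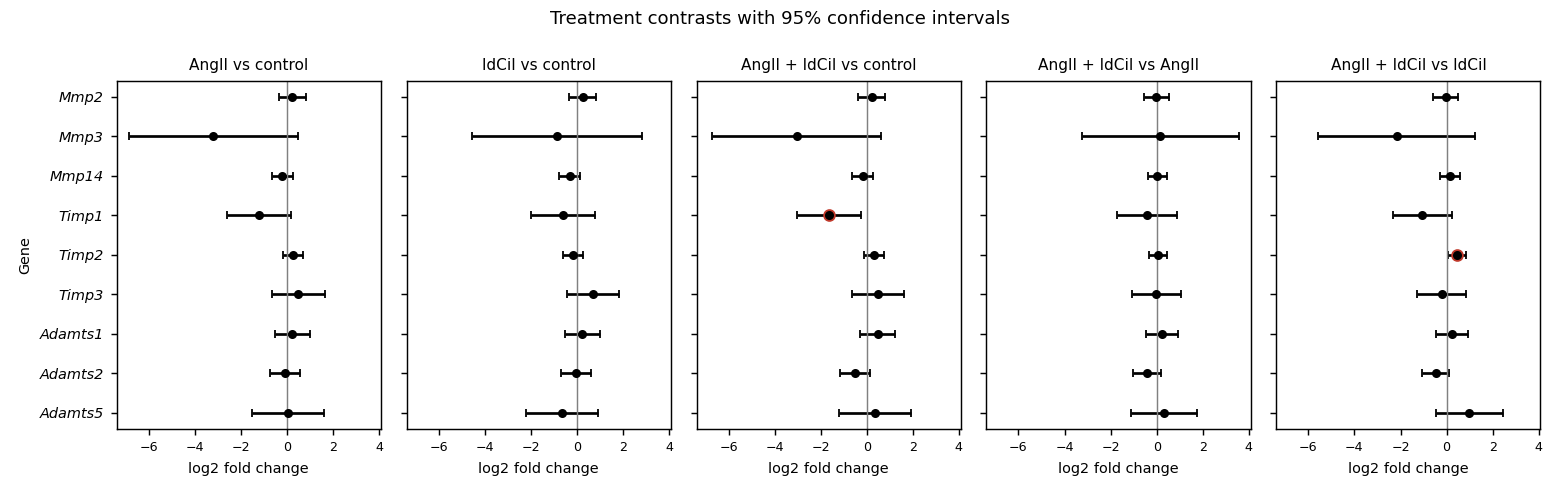
Log2 fold change (horizontal axis, 1 panel per contrast) of each of the 9 genes (vertical axis), with points for the limma estimate and lines for its 95% confidence interval; red rings mark an unadjusted p under 0.05. The intervals of Mmp3 are the widest, -6.87 to 0.49 for AngII against Control, and only Timp1 in AngII + ldCil against Control and Timp2 in AngII + ldCil against ldCil have intervals that leave out 0.

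The wider pathway was followed in 92 further genes, of which 72 were tested: other MMPs, other ADAMTS genes, ADAM sheddases, activators, other inhibitors and matrix substrates. In AngII against Control 9 were higher and 2 lower at the unadjusted p (15.3% of the 72, beside 6.04% of all genes), and in AngII + ldCil against Control 4 were higher and 5 lower (12.5%, beside 5.62%). These 11 and 9 genes became 4 to 19 and 3 to 13 when a single library was left out. For AngII there were 19 without S5 (12.8% of all genes) and 4 without S7 (3.77%). For AngII + ldCil there were 13 without S2 (7.17%) and 3 without S3 (1.63%). The interferon covariate gave 1 and 2 (5.87% and 3.56% of all genes), and a filter at 2 gave 4 and 7 (4.91% and 4.24%). Fits on the groups compared gave 15 and 17 (8.18% and 10.7%), and library weights 45 and 36 (55.5% and 32.7%). The counts were 1 higher and 0 lower for ldCil against Control (1.39%), none for AngII + ldCil against AngII, and 2 higher and 3 lower for AngII + ldCil against ldCil (6.94%). None passed the adjusted p in any of these contrasts. Mmp13, the rodent interstitial collagenase, averaged 0.93 log2 RPKM in AngII and 3.52 in Control (log2 fold change -2.59, SE 0.86, adjusted p = 0.782), and 1.07 in AngII + ldCil (-2.45, adjusted p = 0.849). Its Control libraries read 4.15, 2.01 and 4.39, with S2 the lowest of them as for Mmp3 and Timp1. The elastic fibre protein Eln went the other way, at 7.09 in AngII and 4.29 in Control (log2 fold change 2.80, SE 1.05, adjusted p = 0.782), but S5 alone, at 4.39, lay with the controls. The ldCil libraries, without AngII, split too, at 4.49 and 4.28 in S9 and S10 and 7.40 and 8.39 in S11 and S12. Eln read 6.28, 5.63, 8.32 and 7.15 in AngII + ldCil. S1, S3, S5, S9 and S10 held its lowest values (4.04 to 4.49), and S2 read 4.67. In AngII against Control with the interferon covariate Mmp13 was at -1.32 and Eln at 0.82, and neither passed the unadjusted p. Without the 5 libraries, where S2 was the single control, Mmp13 was at -1.63 and Eln at 3.32. In AngII + ldCil Mmp13 was at -0.87 and -0.94 in the same settings and passed in neither.

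Fbln1, a matrix glycoprotein that serves as a cofactor of ADAMTS1, passed the unadjusted p in all 3 contrasts with Control, where it was at 1.36, 1.98 and 1.29 log2 RPKM. It was 2.71, 2.87, 2.94 and 2.88 in AngII, with S5 beside its group and above every control. In ldCil it was 2.39, 2.34, 2.91 and 3.15. In AngII + ldCil it was 3.63, 2.53, 3.87 and 1.77, so that S16 lay below the control S2. Its log2 fold changes were 1.31 for AngII, 1.16 for ldCil and 1.41 for AngII + ldCil (SE 0.40 each), all against the same controls, with an adjusted p of 0.782 or more. All 3 passed with the interferon covariate (1.05, 1.00 and 1.08), and none passed without the 5 libraries (0.92, 1.06 and 0.97). At the unadjusted p, Adamts8 (1.12) and Adamts20 (1.48) were higher and the protease inhibitor Tfpi2 (-1.04) lower in AngII + ldCil than in Control, and the sheddase Adam19 was lower in AngII (-0.46). With the interferon covariate they were at 0.51, 1.01, -0.34 and -0.28, in that order, and without the 5 libraries at 0.87, 0.92, -0.93 and -0.33, and none of them passed in either setting. By level, the leading genes beside the 9 members were Mmp15 (5.56 log2 RPKM) and the macrophage elastase Mmp12 (4.66) among the MMPs, Adamts10 (4.44) among the ADAMTS genes and Adam9 (7.71) among the sheddases. Bsg (8.98), an inducer of MMPs also called CD147, led the activators, Thbs1 (10.3) the inhibitors and clearance genes, and Col4a1 (10.2) the substrates.

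Likeness of pattern was measured as the root mean square difference in log2 RPKM over the 15 libraries, after each gene was centred on its own mean, among 12839 genes that were not members. Adamts5 was closest to Ccn5, a matricellular protein of the CCN family, at 0.19 against its own SD of 1.04. Ccn5 was 6.11, 6.68, 6.48 and 6.46 in S2, S8, S13 and S14, where Adamts5 was also highest, and 2.87 in S11, where both were lowest. Mmp3 was closest to complement C3 (0.69 against an SD of 2.67), which ran from 0.74 in S16 to 6.47 in S3. Timp1 was closest to the MHC class I gene H2-T23 (0.29 against 1.06), and Timp3 to the mechanosensitive channel gene Piezo2 (0.32 against 0.75). Adamts2 was closest to Bmp1 (0.16 against 0.45), which encodes the procollagen C-proteinase and so acts on the other end of the same precursors. The nearest genes of the rest were Plcb4 for Mmp2 (0.14), Arsa for Mmp14 (0.08), Nfia for Timp2 (0.14) and Rell1 for Adamts1 (0.20).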

How the data were processed

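RNA from 15 libraries was sequenced by the authors after poly(A) capture. Per the labels' processing notes, reads were aligned with HISAT2 to GRCm38 (mm10) and counted with HTSeq; the sources used here give neither their versions nor the strand setting. The deposited table holds log2 RPKM values that the authors had already normalised for GC content and length (cqn), so depth is unknown and no counting interval was made. The log scale was read from the values, and base 2, the scale that cqn returns, was taken as given. Its 8 columns of text were not used. Gene positions came from GENCODE M21, with 14329 of 14337 identifiers matched, and promoters from RefSeq.

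The 12848 genes whose log2 RPKM averaged 0 or more entered limma 3.58.1 (R 4.3.3), with 1 mean per group over all libraries, a mean-variance trend, 2-sided p-values and Benjamini-Hochberg adjustment over all of them; exact permutation tests covered single genes. The procedure was tested on simulated data. The members and lists were chosen with earlier results of these data known. Single fold changes are given for Mmp3 and Timp1, for members at p under 0.2 and for members whose groups did not overlap; of the other pathway lists, for genes at p under 0.02, at most 2 per direction. Of each list the leading genes by level are named, with lower cell type markers chosen after their values were seen, and for each member the most similar gene. The alternatives were other filters, 1 added to RPKM, median centring, fits on the groups compared, library weights, fibroblast and interferon means as covariates, and each library left out; leaving out S1, S3, S5, S9 and S10 was chosen after seeing the data.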

Additional observations from a re-analysis of the deposited data

Results flagged for a closer look

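In the 27 groups of 4 libraries tested, 3 values of the members lay far from the rest of their group, judged by the gap to the nearest library over the range of the group against Dixon's critical value, which chance passes in about 1 in 20 groups. Mmp3 in the AngII library S5 was 6.27 log2 RPKM, with the other 3 at 0.49 to 1.03 and a gap of 0.907 of the range. Timp1 in the same library was 9.0, with the others at 6.75 to 7.10 and a gap of 0.845. Timp2 in the AngII + ldCil library S15 was 8.10, with the others at 8.35 to 8.39 and a gap of 0.867.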

How the results depend on the processing

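No paired analysis was possible because the library numbers of the labels run through the series and are not shared between groups. Counts of members at the unadjusted p, in the order AngII, ldCil and AngII + ldCil (both) against Control, both against AngII, both against ldCil, and interaction, were 0, 0, 1, 0, 1 and 0. They stayed so with no filter, a filter at 2, 1 added to RPKM and median centring. With library weights they were 8, 2, 7, 4, 6 and 3, while 55.5%, 12.3%, 32.7%, 44.9%, 28.5% and 36.4% of all genes passed and the weights ran from 0.113 in S5 to 7.01 in S1; Timp1 in AngII + ldCil against Control then had an adjusted p = 0.00326. Fits on the groups compared gave 1 for ldCil and 3 for AngII + ldCil against Control, beside 3.2% and 10.7% of all genes. The fibroblast covariate gave 2 for AngII + ldCil against Control (Timp1 and Adamts1, beside 4.99% of all genes). Against ldCil it also gave 2 (Timp2 and Adamts5, beside 6.17%). The interferon covariate gave 0 for AngII + ldCil against Control, beside 3.56%. Leaving out S1, S3, S5, S9 and S10 left S2 as the single control, so its counts of members are not given here. Leaving out single libraries gave 0 to 3 for AngII, 0 to 2 for AngII + ldCil against Control, 0 to 1 against AngII and 0 to 2 against ldCil. The share of all genes moved as well, so these counts cannot be read alone. For AngII + ldCil against Control it was 1.63% without S3 and 8.02% without S5. Against AngII it was 1.98% without S1 and 6.02% without S8, and against ldCil 3.73% without S9 and 6.86% without S5. The 3 for AngII came without S5, where 12.8% of all genes passed.

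Directions turned for Mmp3 and Timp1, and for Adamts2 with weights. With library weights Mmp3 was 1.04 in ldCil against Control, and Timp1 0.57 and Adamts2 0.21 in AngII + ldCil against AngII. With the interferon covariate Mmp3 was 0.076 in AngII, 1.03 in ldCil and 1.03 in AngII + ldCil against Control, and Timp1 0.071 in ldCil. Without the 5 libraries Timp1 was 0.12 in AngII + ldCil against AngII and Mmp3 0.65 against ldCil. Leaving out single libraries gave -0.56 to 1.54 for Mmp3 and -0.64 to 0.12 for Timp1 in AngII + ldCil against AngII, and -1.91 to 0.30 for Mmp3 in ldCil. The cause was not tested. Depth is unknown, so precision at low levels cannot be given.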
